A study of Homo sapiens with 2 samples.

Results

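Amino acid transporter genes were examined in the anaplastic large cell lymphoma (ALCL) line SU-DHL-1, on 1 array from cells given the control siRNA siCTR and 1 array from cells given siHLX, which targets HLX, a homeobox gene of the NKL subclass. The genes were those of the solute carrier families SLC1, SLC3, SLC6, SLC7, SLC36, SLC38 and SLC43 for which the array annotation gave at least 1 probe set with that gene alone. This rule found 56 genes with 138 probe sets, of 19775 genes with a probe set of their own. SLC36A2, SLC36A3 and SLC38A8 were not analysed here. Both groups were the same cell line, which carries the NPM1-ALK fusion, and differed by the siRNA. According to the methods of the study, 80 pmol of siRNA was introduced by electroporation and cells were harvested after 20 h. The purpose of the arrays was a search for target genes of HLX.

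Amino acids cross cell membranes on carriers that either couple entry to sodium or proton gradients or exchange 1 amino acid for another. Proliferating lymphoid cells depend on such carriers for glutamine, leucine and arginine, which feed protein synthesis and signal through the kinase complex mTORC1 at the lysosome. Several exchangers of the SLC7 family reach the cell surface only when bound to a heavy chain of the SLC3 family. Amino acid shortage activates the kinase GCN2 and the transcription factor ATF4, which raises the transcription of many transporters and biosynthetic enzymes.

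Values are log2 intensities, on which a difference of 1 is a 2-fold difference, and each gene is represented by its brightest probe set, judged by the mean of both arrays. A gene was counted as above the level threshold when that mean was at least 4.865, the median over all probe sets, and as in the bright band when it was at least 7.095, the 75th percentile, with the dim band between these limits. The threshold is a convention, since these values carry no detection call. Probe sets differ in affinity, so levels of different genes are not an order of transcript amounts. With 1 array per siRNA there was no replicate, no test was run, and every difference is the siHLX array minus the siCTR array. In a bulk sample, fewer cells with a transcript and less of it per cell cannot be told apart.

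HLX, the target, read 8.15 with siCTR against 7.70 with siHLX (difference -0.45), a decrease of less than 1.5-fold. All differences below were read under this partial decrease of the HLX signal. All 10 ALCL markers examined lay above the threshold, among them TNFRSF8 (CD30), ALK, GZMB and PRF1, and their summed linear intensity was 48596.08 with siCTR and 48804.54 with siHLX. Of 6 T cell markers 5 passed it, all but CD2, and the sum of the list was 395.38 and 345.14, with CD7 (-0.55) and CD247 (-0.62) lowest. Markers of other cell types passed in part: 2 of 4 B cell markers with a probe set (CD79A and PAX5, not MS4A1 or CD79B; list sums 181.32 and 182.31) and 2 of 5 myeloid markers (CSF1R and ITGAM, not CD14, LYZ or MPO; 140.16 and 140.76). So did 4 of 6 epithelial and stromal markers (KRT8, KRT18, COL1A1 and DCN, not EPCAM or COL1A2; 443.60 and 430.76) and 3 of 5 neural markers (RBFOX3, SYP and MBP, not GFAP or SNAP25; 212.28 and 229.42). KRT18 (7.20 and 7.04) and COL1A1 (7.62 and 7.43) reached the bright band. A level above either limit is therefore not by itself a sign of expression. Quantile normalisation equalised both arrays, while the 24 poly-A control probe sets read on average 0.29 lower with siHLX (mean difference -0.29, SD 0.18 over probe sets). Scaling to these controls takes the median over all genes from -0.01 to 0.28. Each difference below is therefore relative to the bulk of genes.

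SU-DHL-1 had 35 of the 56 transporter genes above the threshold (62.5%), near the 61.4% of all genes. Of these, 17 lay in the bright band and 18 in the dim band. The bright band held the glutamine carriers SLC1A5, SLC38A1, SLC38A2 and SLC38A5, the leucine exchanger SLC7A5 with its heavy chain SLC3A2, the cationic carriers SLC7A1 and SLC7A2, and SLC7A6. It also held SLC43A3, the taurine carrier SLC6A6, the lysosomal proteins SLC38A7, SLC38A9 and SLC36A1, and SLC36A4, SLC38A6 and SLC38A10. SLC7A2 and SLC38A10 lay exactly at the limit of this band (7.095), with siCTR readings below it (6.96 and 7.05). Below the threshold were 21 genes, with levels between 2.70 and 4.66. These were mostly carriers of kidney, gut and neurons: SLC1A1, SLC1A6, SLC3A1, SLC38A4, SLC38A11, SLC6A4, SLC6A5, SLC6A9, SLC6A11, SLC6A12, SLC6A13, SLC6A14, SLC6A15, SLC6A16, SLC6A18, SLC6A20, SLC7A3, SLC7A9, SLC7A10, SLC7A13 and SLC7A14. Their differences ran from -0.85 to 0.42, with 14 lower, 6 higher and 1 at 0. The genes just under the threshold were SLC7A9 (level 4.575, difference -0.85), SLC6A5 (4.595, 0.29) and SLC1A6 (4.660, 0.42). Those just over it were SLC7A4 (5.0, 0.08), SLC38A3 (5.105, -1.21) and SLC1A7 (5.215, -0.11).

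**Figure D1:**
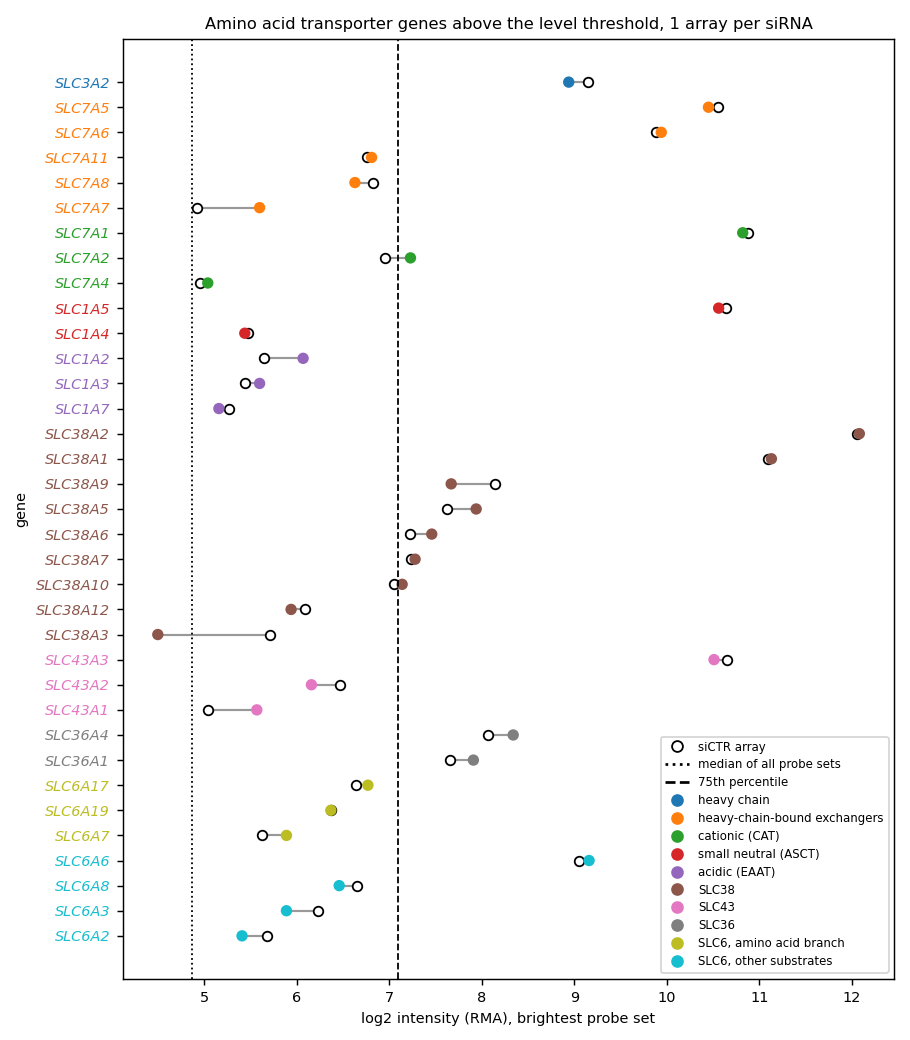
Log2 intensity (x axis) of the brightest probe set of the 35 transporter genes above the level threshold (y axis). Genes are grouped by family and ordered by mean level within each family. Open circles are the siCTR array, coloured circles the siHLX array, colours mark the family, and the dotted and dashed lines are the median and the 75th percentile of all probe sets. Both circles nearly coincide for the 9 genes with a level of at least 9, and the widest gap is that of SLC38A3, at 5.71 and 4.50.

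Most transporter genes differed little between the arrays. Of the 35 genes above the threshold, 19 were higher with siHLX, 15 were lower (42.9%) and 1 was equal. Of all 12135 genes above the threshold, 5756 were higher, 6085 lower (50.1%) and 294 equal. The median difference was 0.04 for the transporters and -0.01 for all these genes. With both arrays scaled to the poly-A controls, 31 of the 35 were higher and 4 lower, where the median over all genes was 0.28. Just 1 gene, SLC38A3, differed by at least 2-fold, which is 2.86% of the transporters beside 0.841% of all genes. A difference of at least 1.5-fold was met upwards by 1 gene, SLC7A7 (2.86% beside 2.5% of all genes), and downwards by 1 gene, SLC38A3 (2.86% beside 2.55%). With 1 gene in each count, these shares do not set the transporters apart from the background. The median absolute difference was 0.16 for the transporters and 0.14 for all genes.

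The spread depended on level. The 9 transporter genes with a level of at least 9 had differences from -0.21 to 0.11, 4 higher and 5 lower, and the median absolute difference was 0.08, as it was for all 3672 genes at that level. The 17 genes of the bright band ran from -0.47 to 0.31 with an SD of 0.20 over genes (0.17 for all genes there). The 18 genes of the dim band ran from -1.21 to 0.68 with an SD of 0.41 (0.39 for all genes there). Both genes past 1.5-fold thus lay in the dim band.

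**Figure D2:**
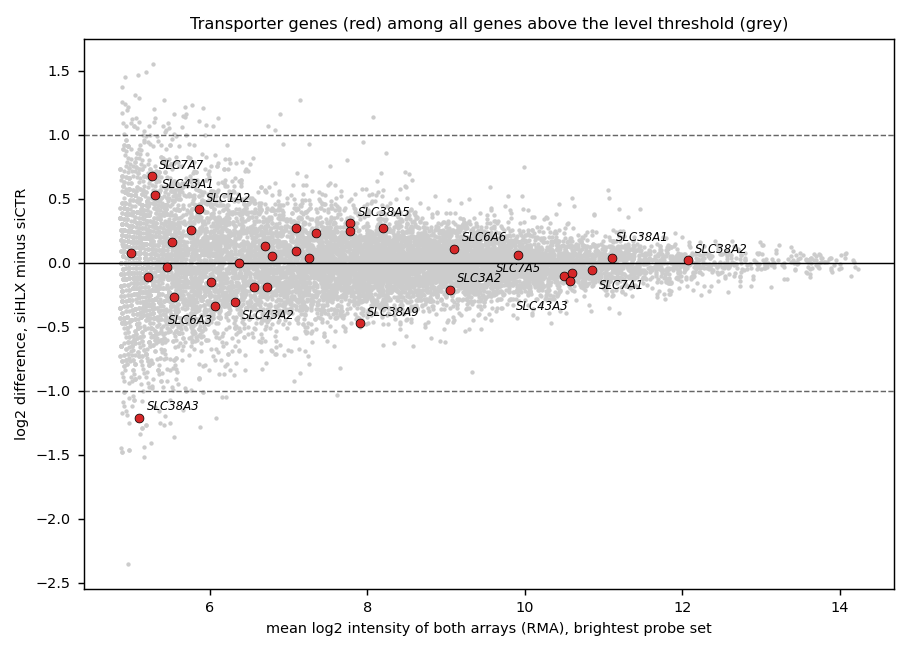
Log2 difference, siHLX minus siCTR (y axis), against mean log2 intensity of both arrays (x axis) for the brightest probe set of each gene. Grey points are all 12135 genes above the level threshold, red points the 35 transporter genes, and dashed lines mark 2-fold. Of the red points, SLC38A3 at -1.21 alone lies outside the dashed lines, and those at levels of at least 9 lie between -0.21 and 0.11.

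The heavy chain SLC3A2 and its large neutral partner SLC7A5 were in the bright band and read slightly lower with siHLX. SLC3A2, the CD98 heavy chain that carries SLC7 exchangers to the plasma membrane, read 9.15 on the siCTR array and 8.94 on the siHLX array, a difference of -0.21. Among probe sets with a gene name and a level at most 0.5 log2 units away, called like-level below, 11.3% were lower by as much. SLC7A5 (LAT1), which exchanges leucine and other large neutral amino acids, read 10.55 and 10.45, a difference of -0.10 that 24.1% of like-level probe sets reached. A probe set shared by the SLC7A5 pseudogenes SLC7A5P1 and SLC7A5P2 and by SMG1P3 read 7.74 and 7.72. Each of the pair SLC3A2 and SLC7A5 was read by 1 probe set of its own, so no further probe set could be set beside it.

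The other exchangers that bind SLC3A2 did not share a direction. SLC7A6, which exchanges cationic against neutral amino acids, read 9.88 and 9.94 on its brightest probe set (0.06), while its dimmer ones read 8.75 and 8.56 (-0.19) and 8.02 and 7.76 (-0.26). SLC7A11 (xCT), the cystine and glutamate exchanger that supplies cysteine for glutathione, read 6.76 and 6.81 (0.05), and its other probe set above the threshold read 5.44 and 4.78 (-0.66). SLC7A8 (LAT2) read 6.82 and 6.63 (-0.19) on its brightest probe set and 6.39 and 6.75 (0.36) on the next. In all 3 genes the probe sets above the threshold differed in sign.

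SLC7A7, a close relative of SLC7A6 with the same exchange activity, had the most positive difference among the transporters. Its only probe set read 4.92 on the siCTR array and 5.60 on the siHLX array, a difference of 0.68 or 1.60 times the control intensity. At that level 7.01% of named probe sets lay as far up, and the siCTR reading was only just above the threshold.

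Among the cationic amino acid carriers, SLC7A1 (CAT1), the widespread arginine and lysine carrier, read 10.88 and 10.82 (-0.06), with 0.22 and -0.04 on its other probe sets above the threshold. SLC7A2, an arginine carrier induced in activated macrophages, read 6.96 and 7.23 (0.27), which 13.5% of like-level probe sets reached. SLC7A4, a relative without established transport activity, read 4.96 and 5.04 (0.08), while a probe set under the threshold gave a difference of -0.92. On the brightest probe sets, SLC7A1 was thus slightly lower and the other two were higher.

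The exchangers of small neutral amino acids were represented by SLC1A5 and SLC1A4. SLC1A5 (ASCT2), a main entry route of glutamine in proliferating cells, read 10.64 and 10.56, a difference of -0.08 that 30% of like-level probe sets reached. SLC1A4 (ASCT1), which carries serine and alanine, was dim and its probe sets disagreed in size. The brightest read 5.47 and 5.44 (-0.03), and the other above the threshold read 5.57 and 4.45, a difference of -1.12 that 1.19% of like-level probe sets reached. The mean over both was -0.58 with an SD of 0.77 between probe sets, which is not a replicate error.

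The acidic amino acid carriers, known mainly from glia, neurons and retina, gave dim readings. SLC1A2 read 5.65 and 6.07 (0.42) on its brightest probe set, and its 5 probe sets below the threshold ran from -0.41 to 0.42. SLC1A3 read 5.44 and 5.60 (0.16), and SLC1A7 read 5.27 and 5.16 (-0.11), with 0.40 and 1.10 on probe sets below the threshold. The neural markers RBFOX3, SYP and MBP also lay in the dim band, while GFAP and SNAP25 lay below the threshold. A link between these markers and the carrier readings was not tested.

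The SLC38 family holds the sodium-coupled carriers of glutamine and other neutral amino acids. SLC38A2 (SNAT2), whose transcription is known to respond to amino acid shortage, read 12.06 and 12.08 (0.02), with 0.05 and -0.02 on its other probe sets, a mean of 0.02 (SD 0.04 between 3 probe sets). SLC38A1 (SNAT1) read 11.09 and 11.13 (0.04), with 0.06 and 0.19 on the others above the threshold. These bright glutamine carriers thus differed by at most 0.19 on any probe set above the threshold. SLC38A5 (SNAT5), a carrier of glutamine, asparagine and histidine, read 7.63 and 7.94 on its only probe set, a difference of 0.31 that 7.03% of like-level probe sets reached.

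SLC38A3 (SNAT3), the system N carrier known from liver and kidney, had the most negative difference of all transporter genes. Its only probe set read 5.71 on the siCTR array and 4.50 on the siHLX array, a difference of -1.21 or 0.43 times the control intensity. A decrease of that size was seen in 0.771% of like-level probe sets. The siHLX reading was below the level threshold, and no other probe set of the gene was there to compare.

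SLC38A9, the lysosomal arginine sensor that signals to mTORC1, had the largest difference among the transporters of the bright band. It read 8.14 on the siCTR array and 7.67 on the siHLX array, a difference of -0.47 or 0.72 times the control intensity, which 1.13% of like-level probe sets reached. Its dimmer probe set read 5.31 and 5.16 (-0.15), the same sign with a smaller size, for a mean of -0.31 (SD 0.23 between 2 probe sets). SLC38A7, which exports glutamine from lysosomes, read 7.24 and 7.28 (0.04) on its brightest probe set but 6.89 and 6.41 (-0.48) and 6.32 and 5.84 (-0.48) on the others above the threshold. SLC38A6 read 7.23 and 7.46 (0.23), SLC38A12 read 6.09 and 5.94 (-0.15), and SLC38A10 read 7.05 and 7.14 (0.09) with 0.07, -0.10 and -0.33 on its other probe sets above the threshold.

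The proton-coupled SLC36 carriers were both higher on their brightest probe set. SLC36A1 (PAT1), which moves small amino acids out of lysosomes, read 7.66 and 7.91 (0.25), while a probe set under the threshold read 4.92 and 4.65 (-0.27). SLC36A4, a carrier of proline and tryptophan, read 8.07 and 8.34 (0.27) on the brightest probe set and 5.94 and 5.04 (-0.90) on the other. The dimmer probe set of each gene thus had the opposite sign.

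The SLC43 family comprises the facilitative carriers SLC43A1 (LAT3) and SLC43A2 (LAT4) of large neutral amino acids and SLC43A3, which is known as a carrier of purine nucleobases. SLC43A3 read 10.65 and 10.51 (-0.14) and, on its other probe set, 9.76 and 9.63 (-0.13), the closest agreement between probe sets of any transporter examined (SD 0.01). At its level 14.2% of probe sets lay as far down. SLC43A2 read 6.47 and 6.16 (-0.31) on its brightest probe set, with -0.50 on a probe set below the threshold. SLC43A1 read 5.04 and 5.57 on its only probe set, a difference of 0.53 that 12.2% of like-level probe sets reached.

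Of the SLC6 family, SLC6A6, the taurine carrier, was the only gene in the bright band, and its probe sets disagreed. The brightest read 9.05 and 9.16 (0.11), while the dimmer ones above the threshold read 5.96 and 5.44 (-0.52) and 5.65 and 4.35 (-1.30), the latter reached by 0.441% of like-level probe sets. SLC6A8, the creatine carrier, read 6.65 and 6.46 (-0.19), with 0.12 and 0.05 on its other probe sets. A probe set that it shares with its pseudogenes SLC6A10P and SLC6A10PB read 6.91 and 7.19 (0.28), where the signal of gene and pseudogene cannot be separated.

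The remaining SLC6 genes above the threshold are best known from brain, kidney and gut. SLC6A17, a vesicular carrier of neurons, read 6.64 and 6.77 (0.13), with -0.10 on its other probe set, and SLC6A19, the main neutral amino acid carrier of kidney and gut, read 6.37 on both arrays. SLC6A7, the proline carrier, read 5.63 and 5.89 (0.26). The dopamine carrier SLC6A3 read 6.23 and 5.89 (-0.34), which 15.8% of like-level probe sets reached, and the noradrenaline carrier SLC6A2 read 5.68 and 5.41 (-0.27), with its 7 probe sets below the threshold between -0.40 and 0.71. All lay in the dim band, where non-lymphoid markers also passed the threshold.

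Probe sets of the same transporter often differed in sign, as did those of most genes over the array. Probe sets of a gene are repeat readings from the same arrays, so their spread is not a replicate error. Whether it is technical or reflects different transcripts of a gene was not tested. Above the threshold, 15 transporter genes had 2 or more probe sets, and in 4 of these genes all shared a sign (26.7%), beside 37.1% of 5869 such genes over the array. These were SLC1A4, SLC38A1, SLC38A9 and SLC43A3, and the gap between the shares was not tested. A shared sign is not agreement in size, since SLC1A4 is counted with an SD of 0.77 between probe sets. SLC38A2, with an SD of 0.04, is not counted. Within genes, the pooled SD over probe sets was 0.37 for the transporters and 0.27 for all genes. The brightest probe set and the others also differed in direction. Of the 24 other probe sets above the threshold, 16 were lower with siHLX (66.7%, beside 49.7% of 10318 over the array) and 8 were higher, with medians of -0.12 and 0.00. At least 1.5-fold lower were 4 of the 24 (16.7%, beside 3.45%), those of SLC6A6, SLC1A4, SLC36A4 and SLC7A11, and 0 were 1.5-fold higher (3.68% over the array). All 4 had a level under 6. Of the other probe sets under that level, 4 of 9 for the transporters (44.4%) and 8.62% of 3354 over the array were as low. The 24 came from 15 genes, and these shares were not tested. When all probe sets of a gene were averaged instead of taking the brightest, 28 transporter genes lay above the threshold. Of these, 8 were higher and 20 were lower, with a median of -0.09 (-0.01 for all genes). Probe sets of the types _s_at and _x_at can match several transcripts. Without them, 16 of 23 were higher and 6 lower, with a median of 0.09 (0.00 for all genes). The split of 19 higher and 15 lower genes therefore depends on which probe sets are used.

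**Figure D3:**
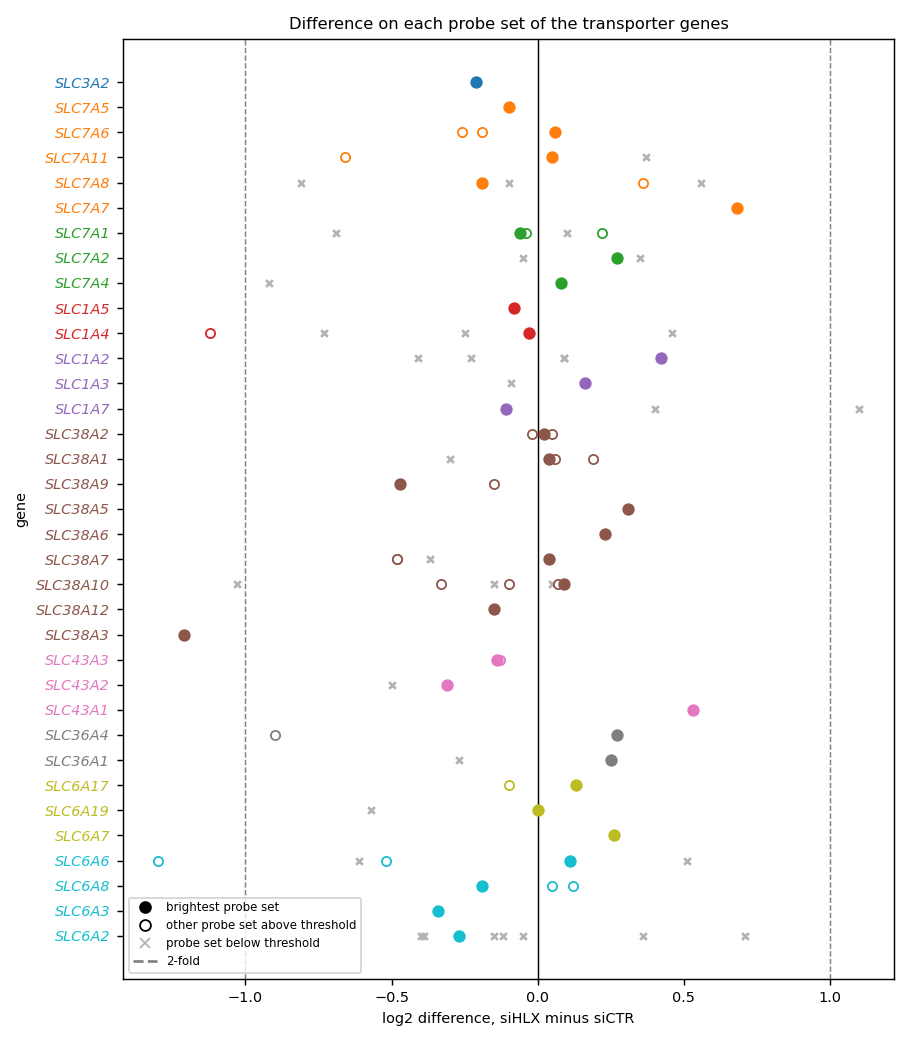
Log2 difference, siHLX minus siCTR (x axis), on each probe set of the 35 transporter genes above the threshold (y axis). Genes are grouped by family and ordered by mean level of the brightest probe set within each family. Filled circles are the brightest probe set, open circles other probe sets above the threshold, grey crosses those below it, and dashed lines mark 2-fold. Open circles lie past the line at -1 for SLC6A6 (-1.30) and SLC1A4 (-1.12), while the filled circle of each lies near 0.

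By role, the larger classes were mixed in direction. Of 9 SLC38 genes above the threshold, 6 were higher and 3 lower (median 0.04). Of 5 heavy-chain-bound exchangers 3 were higher and 2 lower (0.05). Both small neutral exchangers were lower (-0.06) and both SLC36 genes were higher (0.26). In the RefSeq gene order of GRCh38.p14, SLC38A1, SLC38A2 and SLC38A4 lie on chromosome 12 with 0 protein-coding genes between neighbours. Their differences were 0.04, 0.02 and 0.00, the last on a probe set below the threshold. SLC43A3 and SLC43A1 on chromosome 11 have 1 protein-coding gene between them and had differences of -0.14 and 0.53.

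Genes that act with the transporters were set beside them, with each list described by its members above the threshold. The lists overlap, so their medians are not separate readings. The amino acid response shares genes such as ASNS and PSAT1 with the enzymes, CARS1 and WARS1 with the synthetases, and SESN2 with mTORC1 sensing. Of 32 genes of the amino acid response, 14 were higher and 16 lower, with a median of -0.01. In this list 1 gene was 1.5-fold higher and 1 gene 1.5-fold lower, beside 2.5% and 2.55% of all genes above the threshold. With 1 gene in each count, the list is not set apart from that background. DDIT4, an inhibitor of mTORC1 induced by stress, read 8.18 and 8.78 (0.60), which 0.353% of like-level probe sets reached. CHAC1, which degrades glutathione and is a known ATF4 target, read 6.42 and 5.41 (-1.01) on its only probe set above the threshold, and 0.608% lay as far down. PYCR1, an enzyme of proline synthesis, read 0.36 higher and EIF2AK4 (GCN2) 0.22 higher, while ADM2 (-0.28) and STC2 (-0.24) read lower. The central members differed less, with -0.16 for ATF4, -0.15 for DDIT3, 0.09 for TRIB3, -0.01 for ASNS and 0.06 for PSAT1. CHAC1 and DDIT4 thus stood at opposite ends of a list whose median was near 0.

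Among 32 genes of amino acid sensing by mTORC1, 16 were higher and 15 lower, and the median was 0.01. Of these, 0 passed 1.5-fold, beside 2.5% upwards and 2.55% downwards over all genes above the threshold. Highest were LAMTOR2, a subunit of the lysosomal Ragulator complex (9.22 and 9.46, 0.24), the arginine sensor CASTOR1 (0.21) and FNIP1 (0.19). Lowest were DEPDC5, a subunit of the inhibitory GATOR1 complex (6.12 and 5.60, -0.52), MTOR itself (7.12 and 6.72, -0.40) and TSC2 (6.84 and 6.47, -0.37). MTOR and SLC38A9 were both lower, with 6.12% and 1.13% of like-level probe sets as far down.

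Of 18 genes in the list of aminoacyl-tRNA synthetases, which includes the accessory protein AIMP1, 5 were higher and 12 lower, with a median of -0.05. With all probe sets of a gene averaged, the median was 0.06 (-0.01 for all genes), so its sign depends on the probe sets used. Differences ran from FARSA (-0.17), SARS1 (-0.11) and LARS1 (-0.09) to IARS1 (0.06), GARS1 (0.09) and AARS1 (0.14). All 3 of the lowest had further probe sets of opposite sign, at 0.05 for FARSA, 0.28 for SARS1 and 0.08, 0.06 and 0.38 for LARS1. Of 31 enzymes of amino acid metabolism, 16 were higher and 14 lower, with a median of 0.01. Here too 1 gene was 1.5-fold higher and 1 gene 1.5-fold lower, beside 2.5% and 2.55% of all genes above the threshold. KYNU of tryptophan breakdown read 6.35 and 6.94 (0.59), ARG2, a mitochondrial arginase, read 7.15 and 7.69 (0.54) and BCKDHB of branched-chain breakdown was higher by 0.46. IDO1, which starts tryptophan breakdown, read 5.92 and 5.27 (-0.65), and PYCR3 (-0.31) and GOT2 (-0.12) were the next lowest. The other probe sets of ARG2 and BCKDHB read 0.03 each. BCAT1, next after BCKDHB, was far brighter, at 11.25 and 11.67 (0.42), which 0.699% of like-level probe sets reached. That share was 1.92% for KYNU, 1.41% for ARG2 and 4.86% for BCKDHB. The other probe sets of BCAT1 read 0.12, 0.34 and -0.08. Of 15 amino acid carriers from other families, 11 were higher and 4 lower, with a median of 0.07, from SLC17A7 (0.34), SLC66A1 (0.27) and SFXN3 (0.23) down to SFXN2 (-0.12), SLC15A3 (-0.10) and SLC25A44 (-0.10). The other probe sets of SLC66A1 (-0.11) and SLC25A44 (0.30) had the opposite sign.

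**Figure D4:**
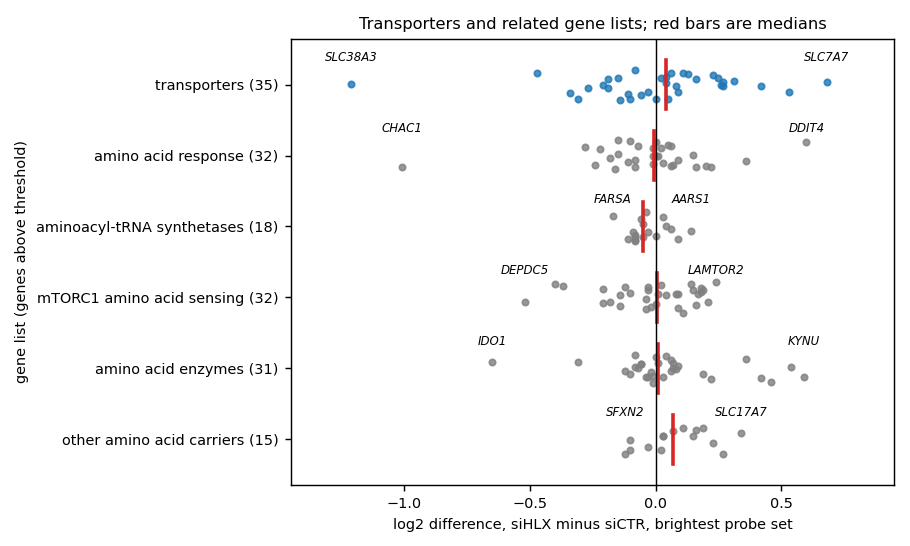
Log2 difference, siHLX minus siCTR (x axis), for each gene above the threshold in the transporters and in 5 related gene lists (y axis, number of genes in parentheses). Points are genes, blue for transporters, red bars are medians, and the lowest and highest gene of each list are named. All 6 medians lie between -0.05 and 0.07, and some genes are shared between the related lists.

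The promoters of the transporters were searched for 2 motifs that bear on amino acid supply, the C/EBP-ATF response element bound by ATF4 (TGATGNAA) and the E-box bound by MYC and TFE factors (CACGTG), on both strands. RefSeq promoter windows of GRCh38.p14, from 250 bases before to 50 after each annotated start, were held for 42 of the 56 genes. The response element occurred in 6 of the 42 (14.3%), SLC1A3, SLC1A4, SLC1A5, SLC3A2, SLC7A1 and SLC38A1, beside 3.6% of all protein-coding genes with a window. The differences of these 6 genes ran from -0.21 to 0.16, with a median of -0.04. The E-box occurred in 10 of the 42 (23.8%, beside 10.9%), SLC1A5, SLC1A7, SLC6A16, SLC7A5, SLC7A7, SLC7A8, SLC36A1, SLC38A5, SLC38A7 and SLC43A1, with differences from -0.20 to 0.68 and a median of -0.02. In the amino acid response list the response element occurred in 8 of 32 genes with a window. A match is a description of the letters, not of binding.

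The stretches around a match are given for genes that the results above turn on, 5′ to 3′ in the direction of the gene, with the match in capitals. CHAC1 (difference -1.01) and ASNS (-0.01) carry the response element and differ in their readings, SLC1A5 (-0.08) and SLC1A3 (0.16) are transporters with it, and SLC7A5 (-0.10) carries the E-box. In CHAC1 the motif is on the opposite strand, so its capitals are the reverse complement. The stretch of SLC1A5 is from 1 of its annotated starts.
CHAC1, chr15:40953236-40953295, plus strand: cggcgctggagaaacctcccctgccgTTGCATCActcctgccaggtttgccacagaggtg
ASNS, chr7:97872443-97872502, minus strand: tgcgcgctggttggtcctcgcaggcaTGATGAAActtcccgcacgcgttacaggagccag
SLC1A5, chr19:46784878-46784937, minus strand: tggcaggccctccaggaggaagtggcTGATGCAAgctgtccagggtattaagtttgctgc
SLC1A3, chr5:36596342-36596401, plus strand: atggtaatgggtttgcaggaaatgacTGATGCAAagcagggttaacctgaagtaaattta
SLC7A5, chr16:87869606-87869663, minus strand: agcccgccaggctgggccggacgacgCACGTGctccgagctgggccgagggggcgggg
The matches begin 209, 68, 97, 220 and 130 bases before the annotated start, in that order. The differences of the 4 genes shown with the response element ran from -1.01 to 0.16.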

How the data were processed

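Total RNA of SU-DHL-1 cells was labelled with biotin and hybridised to Affymetrix HG-U133 Plus 2.0 arrays, 1 per siRNA, and groups were taken from the treatment in the labels. The authors deposited log2 intensities, 1 per probe set, after RMA background correction and quantile normalisation. RMA, limma and affy are named in the submitters' processing notes, with versions not given in the sources used here. Ratios to the sample mean, which the methods also describe, were not present in these values. After sorting, the arrays differed nowhere by more than 0.06, and a shift common to most transcripts cannot appear in such values.

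Leaving controls out, the array held 54613 probe sets, of which 41091 had 1 gene in the annotation, and symbols checked through the Entrez identifier in the RefSeq gene table (GRCh38.p14) changed in 0 cases. Probe sets with several genes entered no count. The array annotation names no build, so no probe set coordinates are given. Gene order, promoter windows and their coordinates come from RefSeq (GRCh38.p14).

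Differences were siHLX minus siCTR. All transporter genes above the threshold were named, with, in each related list, the 3 most positive and 3 most negative genes. ATF4, DDIT3, TRIB3, ASNS, PSAT1 and BCAT1, the promoter motifs and the stretches shown were added after their values were seen. Genes and lists were chosen with earlier results of these data known. Like-level percentages are the share of probe sets with a gene name, at most 0.5 log2 units away in level, that lay as far in the same direction, and they are not a test. With 2 arrays in all, the number of arrays limits the precision.

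Alternatives were median centring, lowess (fraction 0.2), quantile normalisation, poly-A scaling, the mean of all probe sets, leaving out _s_at and _x_at probe sets, a threshold at the 75th percentile and no threshold. Steps were tested on simulated data. Python 3.11.15, pandas 2.3.3, numpy 2.4.6 and statsmodels 0.14.6 were used.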

Additional observations from a re-analysis of the deposited data

How the results depend on the processing

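No paired analysis was possible because each siRNA had 1 array. For the same reason no array could be left out. Median centring, lowess and quantile normalisation moved none of the counts of transporter genes by over 1.5 times and no named transporter by as much as 0.27, the pooled SD between probe sets. The deposited values were already quantile normalised, so these settings could change little and their agreement says little about the differences. Scaling to the poly-A controls added about the same amount to every difference. The median became 0.33 for the transporters, 0.28 for the amino acid response, 0.24 for the tRNA synthetases, 0.29 for mTORC1 sensing, 0.30 for the enzymes and 0.36 for the other carriers, beside 0.28 for all genes. Under it 4 transporters were at least 1.5-fold higher, where 10.3% of all genes were, and 0 passed 2-fold. Without _s_at and _x_at probe sets, 23 transporter genes lay above the threshold and 0 were 1.5-fold higher (2.71% of all genes), since the only probe set of SLC7A7 carries such a suffix. With the threshold at the 75th percentile, 17 genes remained, and 0 were 1.5-fold higher (0.306% of all genes), 0 were 1.5-fold lower (0.239%) and 0 passed 2-fold, since SLC38A3 and SLC7A7 lie under it. Without a threshold 2 of 56 genes were 1.5-fold lower, SLC38A3 and SLC7A9 (4.66% of all genes). Taking the mean of all probe sets moved 8 of 35 named transporters by at least 0.27. It also took the median of the tRNA synthetases from -0.05 to 0.06. Differences of dim probe sets spread more than those of bright ones, and with 1 array per siRNA none has a replicate error.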
